A study of Mus musculus with 6 samples.

Results

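Macrophages grown from mouse bone marrow and kept for 6 h with extracellular vesicles (EVs) labelled LD-F1_b were compared with macrophages kept for 6 h with PBS. The comparison used the 4 libraries of these groups, 2 with LD-F1_b EVs and 2 with PBS, of 6 libraries in the series, and covered 12514 genes that passed a filter on low counts, of 41972 entries in the count table. The other 2 libraries, from macrophages given EVs labelled LD-F1, did not enter the test. All groups were wild type (WT) cells of male C57BL/6 mice aged 6 weeks, whose marrow was cultured for 6 days in medium with 20% serum. Medium conditioned by L-929 cells, which release the macrophage growth factor M-CSF, made up 30%. The EVs came from the mould Aspergillus flavus and were added at 20 µg per well. The sample titles call LD-F1_b a strain of the mould, and the labels do not explain its suffix. They also do not state whether a replicate pooled several mice. The design text states biological replicates, 2 per condition, without saying whether they came from separate mice or cultures, so p-values measure the spread between these libraries only.

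Extracellular vesicles are small membrane-bound particles that cells release, and those of fungi carry proteins, lipids, polysaccharides and nucleic acids of the fungus. Macrophages recognise fungal material through C-type lectin receptors such as Dectin-1, which signal through SYK and CARD9, and through Toll-like receptors, which signal through MyD88. Both routes lead to NF-kB, MAP kinase and AP-1 activity and to the transcription of cytokine and chemokine genes. Stress of the endoplasmic reticulum (ER) is sensed by the kinases PERK and IRE1 and the factor ATF6, which raise chaperone genes, and PERK also feeds the integrated stress response, in which the translation factor eIF2 is phosphorylated and the transcription factor ATF4 is made.

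The libraries held 14540448 to 15277997 counts. Levels are given as CPM, counts scaled to library size with TMM factors. Pearson's r of log2 CPM was 0.9891 between the LD-F1_b libraries, 0.9914 between the PBS libraries and 0.9801 to 0.9812 between groups. The cells expressed markers of macrophages: Csf1r, the receptor for M-CSF, stood at 1282 and 1337 CPM with EVs and 1358 and 1319 CPM with PBS, Adgre1 (F4/80) at 456 and 432 against 394 and 405, and Cd68, a lysosomal glycoprotein, at 664 and 684 against 641 and 671. Of 17 macrophage identity genes in the table, 14 were tested. Itgam, which encodes the integrin CD11b, had 0 and 2 counts with EVs and 1 and 4 with PBS, Mertk had 2 and 5 against 10 and 7, and Maf had 0 counts in all 4 libraries, so these defining markers were at or near 0 in this table. Whether the cells lacked them or their reads went uncounted was not tested. Lyz2 was not analysed here. Across 5976 genes, fold changes were lower for longer genes (Spearman's rho of log2 fold change and length = -0.316, given as a description), and length was also related to the difference between the LD-F1_b replicates (-0.287), and hardly to that between the PBS replicates (-0.0207).

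Many genes of inflammation, of the ER and of the integrated stress response were higher with LD-F1_b EVs, and many genes of DNA replication and repair were lower. With edgeR's quasi-likelihood test and Benjamini-Hochberg adjustment over all genes tested, 1578 genes were higher (12.6%) and 1520 were lower (12.1%) at an adjusted p under 0.05, 24.8% in all. The words rose and fell are used for such genes only, and a value with ± is a log2 fold change with its SE (n = 2 per group). A call described as lost without either replicate was lost when each was left out in turn. In bulk RNA, fewer cells of a kind and less RNA per cell cannot be told apart. At least 1 on the log2 scale was reached by 215 of the higher genes (1.72%) and by 76 of the lower genes (0.607%). The median log2 fold change was 0.42 among higher genes, -0.39 among lower genes and 0.00 over all genes tested. In the called genes both LD-F1_b libraries lay on 1 side of both PBS libraries, which was so for 30.1% of all genes on the higher side and for 30.5% on the lower side. When libraries were scaled by their totals alone, 1156 genes were higher and 2218 lower, a share of 34.3% higher against 50.9%. Without PBS replicate 1, 2022 genes were called, and in a fit of all 6 libraries, where the spread of the LD-F1 replicates enters, 1398 were called.

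**Figure D1:**
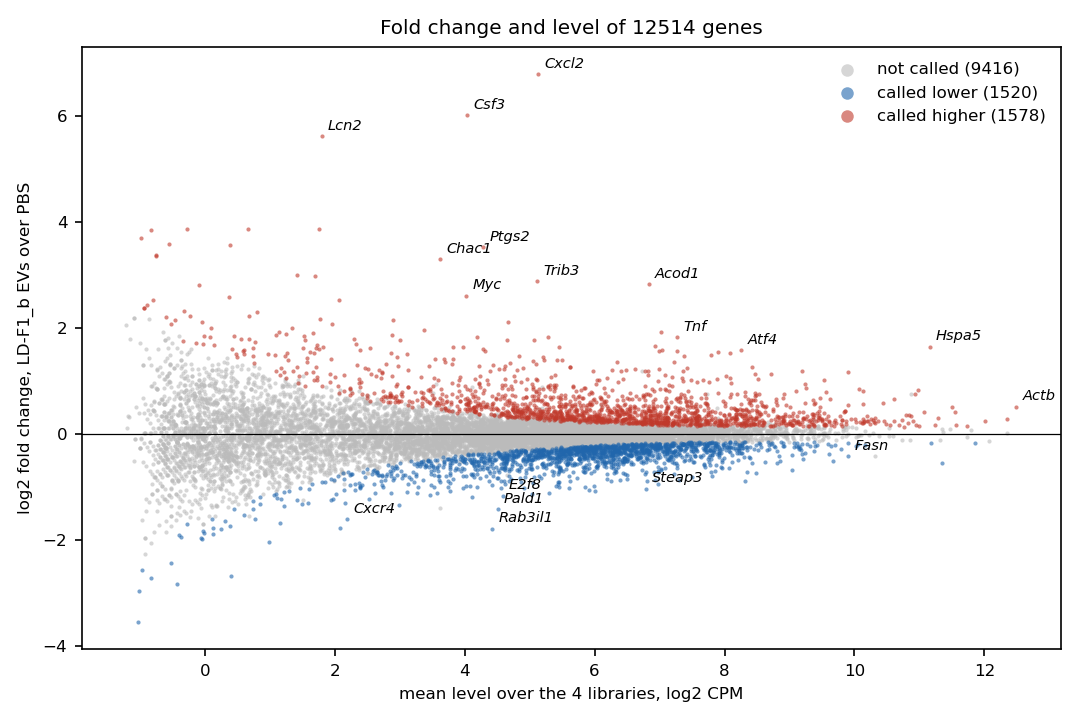
Log2 fold change of LD-F1_b EVs over PBS (vertical axis) against the mean level over the 4 libraries in log2 CPM (horizontal axis), 1 point per gene, red for the 1578 called higher, blue for the 1520 called lower and grey for the rest. The highest points are Cxcl2 at 6.80 and Csf3 at 6.02. Called genes reach down to -3.55, at low levels, and Rab3il1 at -1.79 is the lowest of the labelled ones.

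Among genes with a mean of at least 5 CPM, the largest rise was that of Cxcl2, which encodes a chemokine that attracts neutrophils. Cxcl2 stood at 73.8 and 65.7 CPM in the LD-F1_b libraries and at 0.597 and 0.641 CPM in the PBS libraries, where it had 9 and 10 counts. The groups were far apart, with a log2 fold change of 6.80 ± 0.18 (SE, n = 2 per group) and an adjusted p of 1.09e-12, or 111-fold. Csf3, the gene for the neutrophil growth factor G-CSF, stood at 29 and 35.5 CPM against 0.928 and 0.0641 CPM (6.02 ± 0.37, adjusted p = 6.04e-07). The PBS libraries differed from each other in Csf3, with 14 and 1 counts, but both lay below the EV libraries. Ptgs2, the inducible cyclooxygenase of prostaglandin synthesis, stood at 39.1 and 32.7 CPM against 1.92 and 4.23 CPM (3.53 ± 0.22, adjusted p = 3.34e-08). On the C57BL/6NJ assembly, to which the positions of the count table were taken to refer, Cxcl2 lies on chromosome 5 from 95658254 to 95660321, Csf3 on chromosome 11 from 104378702 to 104392664 and Ptgs2 on chromosome 1 from 160079479 to 160089284.

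The promoter of Cxcl2 is shown because it holds 2 matches to the kB element, the site read by NF-kB, spelled GGG and TTTCC with any 2 bases between them, on either strand. These are the 250 bases before the start in RefSeq (GRCm38.p6, chr5:90903649-90903898, plus strand), 5′ to 3′, with the matches in capitals, and the first match begins 97 bases before the start. The letters occurred in 1.41% of 32851 RefSeq promoter windows of this length, and a match is a description of the letters, not a shown site.
Cxcl2: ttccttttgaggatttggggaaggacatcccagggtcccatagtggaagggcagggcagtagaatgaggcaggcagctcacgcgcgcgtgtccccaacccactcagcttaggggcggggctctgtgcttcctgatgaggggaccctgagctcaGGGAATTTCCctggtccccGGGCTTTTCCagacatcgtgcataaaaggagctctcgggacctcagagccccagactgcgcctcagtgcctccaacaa

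Among the other 12 genes of the 15 with the highest fold changes were several of the integrated stress response and ER stress. Chac1, whose product degrades glutathione, stood at 20.3 and 24.2 CPM against 1.86 and 2.63 CPM (3.30 ± 0.21), Trib3, a pseudokinase that binds ATF4 and AKT, at 60.0 and 62.3 against 8.55 and 7.89 (2.89 ± 0.11), and Herpud1, of ER-associated degradation, at 199 and 212 against 52.4 and 55.9 (1.93 ± 0.07). Cth, which makes cysteine from cystathionine, stood at 12.9 and 10.3 against 2.98 and 3.33 CPM (1.87 ± 0.22). Replicates of a group lay close together in these 4 genes, and no EV library overlapped a PBS library, which the choice of the 15 required. Acod1, which makes itaconate, stood at 203 and 197 CPM against 26.6 and 29.6 CPM (2.83 ± 0.07, adjusted p = 1.09e-12). The transcription factor gene Myc stood at 27.1 and 28.9 against 4.11 and 5.0 CPM (2.62 ± 0.16), and Tnf, the gene for tumour necrosis factor, at 245 and 236 against 69.9 and 65.6 CPM (1.83 ± 0.06, adjusted p = 2.46e-11). Cd40, a costimulatory receptor (2.15 ± 0.22), Soat2, a cholesterol esterifying enzyme (1.97 ± 0.19), Glrp1 (1.83 ± 0.15), Traf1, an adaptor of TNF receptors (1.82 ± 0.10), and Oasl2, an interferon-induced gene (1.77 ± 0.22), completed the 15.

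Among genes with a mean of at least 5 CPM, the lowest fold changes were smaller in size than the highest; the lowest of all called genes, at a low level, stood at -3.55. Rab3il1, an exchange factor for Rab GTPases, stood at 11.6 and 7.72 CPM with LD-F1_b EVs and 34.6 and 32.1 CPM with PBS (-1.79 ± 0.16, adjusted p = 6.37e-07), or 3.46-fold lower. Pald1, a phosphatase-like protein, stood at 12.3 and 12.6 CPM against 33.2 and 33.1 CPM (-1.41 ± 0.12), with replicates almost equal in both groups. Cell cycle and genome genes were among the 15: E2f8, a repressor of the E2F family, at 16.5 and 13.1 against 33.8 and 32.7 CPM (-1.17 ± 0.13), Atad5, which unloads the replication clamp PCNA, at 22.1 and 19.1 against 43.6 and 46.8 CPM (-1.13 ± 0.11), and Aunip, a partner of Aurora A and of DNA break repair (-1.16 ± 0.18). Receptors and transporters were there too: the nucleoside transporter Slc29a3 (-1.20 ± 0.14), the complement receptor C5ar2 (-1.12 ± 0.17), the cannabinoid receptor Cnr2 (-1.07 ± 0.15) and the adhesion receptor Celsr1 (-1.12 ± 0.25). The remaining 6 were Epas1, a hypoxia-inducible transcription factor (-1.23 ± 0.26), Ttc39a (-1.34 ± 0.22), Alms1, a centrosome protein (-1.12 ± 0.18), Pgap1, which trims membrane anchors (-1.11 ± 0.10), the adhesion protein Opcml (-1.10 ± 0.19) and the nuclear corepressor Rere (-1.07 ± 0.08). Rab3il1 lies on chromosome 19 from 7646640 to 7677043, Pald1 on chromosome 10 from 62811701 to 62880449 and E2f8 on chromosome 7 from 51778869 to 51794036.

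**Figure D2:**
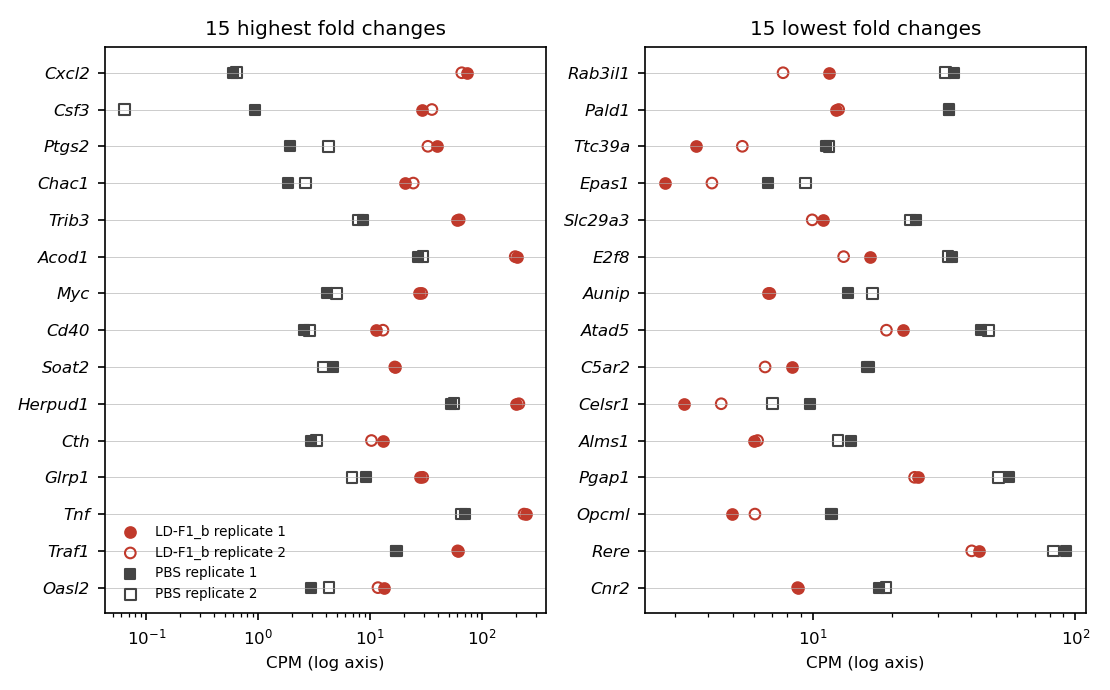
Level in each library, in CPM on a log axis, of the 15 genes with the highest and the 15 with the lowest fold changes, with circles for LD-F1_b EVs, squares for PBS, filled marks for replicate 1 and open marks for replicate 2. Circles and squares do not overlap in any row, since the choice of these genes required it; the widest gap is that of Cxcl2 and the widest spread within a group is that of Csf3 with PBS.

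Cytokine genes rose, but the spectrum was partial. Of 10 proinflammatory cytokine genes tested, 7 rose and 0 fell (median log2 fold change 1.31). Beside Csf3 and Tnf these were Il1b, for interleukin 1 beta (31 and 54 counts with EVs against 1 and 5 with PBS, 3.88 ± 0.63, adjusted p = 0.000305), Lif, a cytokine of the interleukin 6 family (5.15 and 4.35 against 0.796 and 0.385 CPM, 3.0 ± 0.41), and Csf1, which encodes M-CSF (30.3 and 28.9 against 9.95 and 10.1 CPM, 1.56 ± 0.13). Hbegf, an EGF receptor ligand, rose by 1.06 ± 0.22 and Osm, for oncostatin M, by 0.95 ± 0.16. Il18 (0.45 ± 0.30) and Il15 (-0.28 ± 0.19) did not pass. Classical macrophage cytokines were close to absent in all 4 libraries: Il6 had 1 count in all, Il12b and Ifnb1 had 0, and a count of 0 allows up to 0.192 to 0.211 CPM in a library (3 counts, counting error only). Il1a was below the filter, with 16 counts in the EV libraries and 2 in the PBS libraries (ratio 8.63, 95% interval 2.03 to 77.4, counting error only), and so was Il27, with 16 and 3 counts (5.76, 1.65 to 30.8).

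CC chemokine genes, whose products attract monocytes and T cells, rose as well. Ccl3 stood at 419 and 389 CPM with EVs and 129 and 149.9 CPM with PBS (1.53 ± 0.07, adjusted p = 3.33e-10), Ccl4 at 84.1 and 91.4 against 38.1 and 38.6 (1.19 ± 0.08) and Ccl2 at 238 and 244 against 117 and 121 (1.02 ± 0.06). No library of 1 group overlapped the other in these 3 genes, as in all called genes and, on the higher side, in 30.1% of all genes tested. Ccl7 (1.63 ± 0.24), Ccl9 (0.69 ± 0.05), Ccl5 (0.86 ± 0.25) and Ccl22 (1.74 ± 0.44) also rose, making 7 of 11 chemokines other than neutrophil attractants, with 0 lower (median 0.95). The call of Ccl22 was lost without LD-F1_b replicate 1, and that of Ccl5 without LD-F1_b replicate 2 or without PBS replicate 1. Cxcl10, an interferon-induced attractant of T cells, did not pass (2.68 and 1.76 against 1.26 and 1.03 CPM, 0.95 ± 0.44, adjusted p = 0.136). In the list of neutrophil attractants, Cxcl2 rose. Pf4, which is also on the list of megakaryocyte markers, did not pass (0.14 ± 0.21). The others of the list were below the filter: Ppbp had 25 counts in the EV libraries and 2 in the PBS libraries (ratio 13.5, 95% interval 3.36 to 118) and Cxcl1 had 6 and 1 (6.47, 0.786 to 298). With no filter on low counts, without LD-F1_b replicate 1 or without PBS replicate 1, 2 neutrophil attractants were called higher.

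Receptors for fungal and microbial material changed unevenly. Of 17 genes of C-type lectin sensing, 9 rose and 1 fell (median 0.17). Clec7a, which encodes Dectin-1, the receptor for beta-glucan, stood at 37.6 and 32.4 CPM against 12.5 and 16.3 CPM (1.28 ± 0.14, adjusted p = 5.50e-06), and Clec4e, which encodes Mincle, a receptor for glycolipids, at 488 and 492 against 243 and 236 (1.03 ± 0.05). Clec4n, for Dectin-2, rose by 0.92 ± 0.11, Bcl10, a partner of CARD9, by 0.62 ± 0.07 and Clec2d by 1.62 ± 0.35, while the inhibitory receptor Clec4a2 fell (-0.89 ± 0.12); without LD-F1_b replicate 2, 2 members were lower, and with library totals alone 3. The signalling genes Syk (257 and 249 against 259.9 and 250.3 CPM, -0.01 ± 0.05) and Card9 (0.09 ± 0.08) did not pass. Among Toll-like receptors and their adaptors, 5 of 20 rose and 4 fell (median -0.02). The lipopolysaccharide co-receptor Cd14 (0.88 ± 0.05), the inhibitory kinase-like Irak3 (0.88 ± 0.09), the adaptor Ticam1 (0.73 ± 0.11) and Irak2 (0.55 ± 0.07) rose. Tlr2, a receptor for lipoproteins, rose by 0.24 ± 0.06 (adjusted p = 0.00904), but not when PBS replicate 2 was left out or with library totals alone. The endosomal receptors for nucleic acids Tlr7 (-0.55 ± 0.08), Tlr8 (-0.96 ± 0.19) and Tlr9 (-0.48 ± 0.11) and the lipopolysaccharide receptor Tlr4 (-0.33 ± 0.06) fell, and Myd88 did not pass (-0.04 ± 0.07). In the fit of all 6 libraries 2 of this list were lower, and Tlr4 did not pass.

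Genes of NF-kB, the transcription factor family of inflammation, rose together with the genes that switch it off. Of 23 NF-kB subunit and inhibitor genes tested, 16 rose and 0 fell (median 0.35). Nfkbia, which encodes the inhibitor IkB alpha, stood at 155 and 155 CPM against 71.2 and 71.4 CPM (1.12 ± 0.06, adjusted p = 4.24e-09), and Tnfaip3, the ubiquitin-editing enzyme A20, at 44.4 and 39.3 against 18.9 and 16.3 CPM (1.25 ± 0.12). Replicates almost coincided in Nfkbia. The subunit genes Relb (0.89 ± 0.13) and Nfkb1 (0.56 ± 0.05), the A20 partner Tnip3 (0.85 ± 0.07) and the kinase gene Ikbke (0.98 ± 0.06) rose. Rela rose by 0.23 ± 0.07 (adjusted p = 0.0168), a call that was lost without LD-F1_b replicate 2, without either PBS replicate and with library totals alone. Among 21 other brakes on inflammation 7 rose (median 0.30), with Il1rn, the natural antagonist of interleukin 1, at 348 and 361 against 124 and 119 CPM (1.54 ± 0.06, adjusted p = 4.43e-11). The RNase gene Zc3h12a (1.46 ± 0.10), the cytokine signalling inhibitor Socs3 (1.31 ± 0.10) and the mRNA decay factor Zfp36 (1.04 ± 0.09) also rose. Cish, a cytokine signalling inhibitor at few counts, had 2.43 ± 0.78 and lost its call without any 1 of the 4 libraries. Without LD-F1_b replicate 2, 2 of these genes were lower. Il10, the main anti-inflammatory cytokine, had 4 counts in the EV libraries and 1 in the PBS libraries.

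The promoter of Tnfaip3 is shown as that of the member with the largest fold change among those of the NF-kB list with a kB element. The element was present, in any window, in 6 of the 20 list members found in the RefSeq table and in 4 of the 14 called higher. Of all windows, counted singly, 1.41% held it. A gene with several starts has several windows, so these shares are unlike measures, here and for the other elements below. The window at the other start of Tnfaip3 held no match. The 250 bases before the upstream start (GRCm38.p6, chr10:19015411-19015660, minus strand) read as follows, 5′ to 3′ on the gene's strand, with the match in capitals and beginning 12 bases before the start.
Tnfaip3: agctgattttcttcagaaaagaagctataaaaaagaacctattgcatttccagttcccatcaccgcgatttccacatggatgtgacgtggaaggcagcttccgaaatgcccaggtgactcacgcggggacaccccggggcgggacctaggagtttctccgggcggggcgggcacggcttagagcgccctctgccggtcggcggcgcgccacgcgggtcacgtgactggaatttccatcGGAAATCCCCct

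Immediate early genes, which respond to signals without new protein synthesis, were mostly higher at 6 h. Of 24 AP-1 and immediate early genes, 17 rose and 0 fell (median 0.70). After Myc, the largest changes were those of Egr2, a zinc finger factor (11.7 and 14 against 5.04 and 3.97 CPM, 1.51 ± 0.20), the survival gene Ier3 (65.2 and 66.1 against 25.4 and 24.6 CPM, 1.39 ± 0.09), the antiproliferative gene Btg2 (1.33 ± 0.22), Klf4 (1.32 ± 0.15) and Maff (1.3 ± 0.12). Of the AP-1 subunits, Fos stood at 37.5 and 38.6 against 23.2 and 23.4 CPM (0.71 ± 0.10) and Atf3, a repressor of this family, at 142 and 136 against 80.1 and 84.2 CPM (0.76 ± 0.06), while Jun did not pass (149 and 151 against 135 and 140.1 CPM, 0.13 ± 0.06, adjusted p = 0.127). Egr1 had few counts and did not pass (1.21 ± 0.53). The letters of the AP-1 element, TGANTCA, were in the window before the start of 0 of 19 members found in the RefSeq table and in 6.75% of all windows. Among 11 MAP kinase phosphatases, which end MAP kinase signals, 5 rose and 1 fell. Dusp5 rose by 1.18 ± 0.07, Dusp1 by 0.91 ± 0.09 and Dusp2 by 0.57 ± 0.12. Dusp16 and Dusp4 lost their call without PBS replicate 2, which left 3 higher, and the fall of Dusp3 (-0.20 ± 0.06) was lost without PBS replicate 1.

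Interferon-response genes rose, and no count of the interferon beta gene was found in any library. Of 26 genes of the type I interferon response, 21 rose and 0 fell (median 0.75), and 20 to 22 rose when a library was left out. Levels were low for many of them: Ifit1, which binds foreign RNA, stood at 5.92 and 4.77 CPM against 2.06 and 1.35 CPM (1.65 ± 0.32, adjusted p = 0.00113), and Isg15, a ubiquitin-like protein, at 5.15 and 4.14 against 1.99 and 1.86 CPM (1.27 ± 0.31). Better covered members lay clearly apart as well, such as Irf7, the transcription factor that amplifies the response, at 51.2 and 52.7 against 27.4 and 27.1 CPM (0.93 ± 0.09, adjusted p = 2.19e-06). Isg20 (1.94 ± 0.41), Cmpk2 (1.89 ± 0.37) and Xaf1 (1.45 ± 0.20) had some of the largest changes of the list. Rsad2 did not pass (1.84 ± 0.74). Of 11 genes of the interferon gamma response 5 rose (median 0.68): the GTPase genes Gbp2 (1.90 ± 0.33), Gbp7 (1.42 ± 0.29), Gbp3 (1.24 ± 0.39) and Igtp (0.68 ± 0.17) and Cd274, which encodes PD-L1 (49.5 and 43.9 against 22 and 23.8 CPM, 1.03 ± 0.10). Without PBS replicate 1, 3 remained, since Gbp3 and Igtp lost their call, and Gbp3 did so also without LD-F1_b replicate 1. Irf1 did not pass (0.45 ± 0.16). Sensors of nucleic acid in the cytosol gave 4 of 11 higher, among them Ddx58, which encodes RIG-I (0.79 ± 0.11), Ifih1, which encodes MDA5 (0.80 ± 0.18), and Ifi204 (0.85 ± 0.11), a gene with close copies whose counts are therefore uncertain.

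The promoter of Ifit1 is shown because it holds the interferon-stimulated response element, spelled GAAA and GAAA with any 2 bases between them on either strand, at 2 places. The letters occurred, in any window, in 7 of the 20 type I list members found in the RefSeq table and in 5 of the 15 called higher. Of all windows, counted singly, 2.98% held them. The sequence covers the 250 bases before the start (GRCm38.p6, chr19:34640639-34640888, plus strand), 5′ to 3′, with matches in capitals, and the first match begins 104 bases before the start.
Ifit1: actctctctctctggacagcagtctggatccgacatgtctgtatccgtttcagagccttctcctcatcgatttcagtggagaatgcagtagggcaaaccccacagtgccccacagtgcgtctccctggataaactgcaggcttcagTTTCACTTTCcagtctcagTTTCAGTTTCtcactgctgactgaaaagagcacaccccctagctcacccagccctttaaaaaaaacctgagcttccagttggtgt

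Effector genes of host defence were among the most raised. Of 7 antimicrobial and acute-phase genes tested, 6 rose (median 1.65). Lcn2, whose product withholds iron by binding bacterial siderophores, had 118 and 76 counts with EVs and 2 and 2 with PBS (5.62 ± 0.49, adjusted p = 6.60e-07), and Nos2, the inducible nitric oxide synthase, had 31 and 38 against 3 and 3 (3.58 ± 0.59, adjusted p = 0.000311). Both genes were thus scarce in PBS, and Nos2 remained scarce with EVs. Slpi, a protease inhibitor (24.5 and 23 against 7.49 and 7.63 CPM, 1.65 ± 0.14), Saa3, an acute-phase apolipoprotein (1.37 ± 0.19), and complement C3 (0.66 ± 0.07) also rose. In the inflammasome list, 6 of 17 rose and 2 fell. The sensor gene Nlrp3 stood at 282 and 265 against 129.7 and 140.5 CPM (1.02 ± 0.06, adjusted p = 9.19e-09), and Casp4, which senses lipopolysaccharide in the cytosol, rose by 1.07 ± 0.18. Nek7, a partner of NLRP3, fell (-0.49 ± 0.10), and when either PBS replicate was left out the list had 1 member lower. Of the enzymes of arginine and polyamines, 7 of 16 rose and 0 fell, with Odc1, the first enzyme of polyamine synthesis, at 362 and 363 against 177 and 195 CPM (0.96 ± 0.06), Ass1 (0.76 ± 0.10) and Gch1, which supplies the cofactor of nitric oxide synthase (0.66 ± 0.12), while Arg1 did not pass (0.29 ± 0.37). Of 11 eicosanoid enzymes 2 rose (18.2%) and 1 fell (9.09%), beside 12.6% and 12.1% of all genes tested. Those that rose were Ptgs2 and Ptges, the prostaglandin E synthase (0.96 ± 0.17). Hpgds, the prostaglandin D synthase, fell (-0.60 ± 0.09). The counts of this list changed when an LD-F1_b replicate was left out.

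The regulators of the integrated stress response rose almost throughout. Of 20 members tested, 16 rose and 1 fell (median 1.02). Atf4 itself stood at 442 and 475 CPM with LD-F1_b EVs and 149 and 158 CPM with PBS (1.58 ± 0.06, adjusted p = 4.43e-11), or 2.99-fold. Ddit3, which encodes the death-promoting factor CHOP, stood at 40.7 and 37.4 against 11.7 and 11.2 CPM (1.77 ± 0.12), and Sesn2, an inhibitor of mTORC1, at 52.4 and 50.8 against 14.7 and 15.6 CPM (1.77 ± 0.10). Replicates differed by little in these genes. The groups did not overlap in any of them, as in all called genes and, on the higher side, in 30.1% of all genes tested. The secreted stress proteins Gdf15 (1.41 ± 0.19) and Stc2 (1.37 ± 0.11), the chromatin protein Nupr1 (1.41 ± 0.16) and Atf5 (1.18 ± 0.08) rose as well. Of the eIF2 kinases, the PERK gene Eif2ak3 rose (0.46 ± 0.13), Eif2ak4, which encodes the amino acid sensor GCN2, fell (55.4 and 51.6 against 74.2 and 68.7 CPM, -0.42 ± 0.08, adjusted p = 0.00116), and Eif2ak1 (0.06 ± 0.07) and Eif2ak2 (0.25 ± 0.12) did not pass.

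The promoter of Chac1 is shown for a match to the C/EBP-ATF response element (CARE), the site read by ATF4, spelled TGATGNAA on either strand. The letters occurred, in any window, in 3 of the 19 list members found in the RefSeq table (Atf3, Chac1 and Nupr1). Of all windows, counted singly, 3.45% held them. The 250 bases before the start (GRCm38.p6, chr2:119350992-119351241, plus strand) read as follows, 5′ to 3′, with the match in capitals and beginning 193 bases before the start.
Chac1: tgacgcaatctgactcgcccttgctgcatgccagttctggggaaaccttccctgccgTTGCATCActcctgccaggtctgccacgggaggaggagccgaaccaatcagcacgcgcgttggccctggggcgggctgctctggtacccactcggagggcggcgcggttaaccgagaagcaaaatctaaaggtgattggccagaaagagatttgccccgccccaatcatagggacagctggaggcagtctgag

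Genes that ATF4 is known to control in amino acid supply changed in the same direction. Of 22 genes of amino acid synthesis and transport, 14 rose and 1 fell (median 0.47). Slc7a11, the cystine transporter, stood at 382 and 351 against 180.0 and 171 CPM (1.06 ± 0.06, adjusted p = 4.24e-09), and Mthfd2, of mitochondrial folate metabolism, at 174 and 181 against 72.5 and 79.3 CPM (1.23 ± 0.07). Slc1a4 (1.54 ± 0.21) and Slc6a9 (0.92 ± 0.11), carriers of neutral amino acids and glycine, Pycr1, of proline synthesis (0.90 ± 0.20), and Asns, the asparagine synthetase (217 and 225 against 125 and 126 CPM, 0.82 ± 0.06), also rose. The exception was Shmt1, the cytosolic serine hydroxymethyltransferase, which fell (-0.38 ± 0.08). Aminoacyl tRNA synthetases, which charge tRNAs with amino acids, rose in 16 of 19 cases with 0 lower (median 0.38). Their changes were small and even, from the cysteine enzyme Cars (119 and 117 against 71.8 and 66.2 CPM, 0.78 ± 0.07) through Aars (0.53 ± 0.05), Nars (0.51 ± 0.05), Yars (0.50 ± 0.06) and Tars (0.50 ± 0.06). Gars, the glycine enzyme, rose by 0.47 ± 0.05.

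Every tested gene of ER chaperones and folding rose, 18 of 18 (median 1.15), and 17 to 18 rose when a library was left out. Hspa5, which encodes BiP, the main chaperone of the ER, stood at 3439 and 3499 CPM with LD-F1_b EVs and 1109 and 1098 CPM with PBS (1.65 ± 0.05, adjusted p = 1.95e-12), or 3.14-fold. Creld2 stood at 178 and 193 against 60.5 and 56.6 CPM (1.66 ± 0.07), and Sdf2l1, a partner of BiP, at 182 and 199 against 67.1 and 61.8 CPM (1.56 ± 0.07). In these 3 genes the gap between groups was many times that between replicates. The secreted factor Manf (1.48 ± 0.06), the co-chaperone Dnajb9 (1.41 ± 0.10) and the disulfide isomerase Pdia4 (1.27 ± 0.05) followed. Of 18 genes of ER degradation and of the stress sensors, 12 rose and 0 fell (median 0.46), led by Herpud1, the ubiquitin ligase Syvn1 (1.11 ± 0.07), Vimp (0.98 ± 0.07) and Sec61b, of the translocon (0.68 ± 0.12). Xbp1, the transcription factor activated by IRE1, rose (247 and 260.0 against 171 and 170.0 CPM, 0.57 ± 0.05); gene counts do not tell its spliced form. The sensor genes moved less: Atf6 rose by 0.20 ± 0.05 but not without either PBS replicate, and Ern1, which encodes IRE1 alpha, did not pass (0.14 ± 0.07, adjusted p = 0.187), although it did with a gene length offset. Cytosolic chaperones differed little, with 4 of 15 heat shock genes higher (median 0.07), led by Hspa1b (0.64 ± 0.12), a gene with a near-identical copy and so uncertain. Without PBS replicate 1, 2 of these were higher, and 1 was lower when either LD-F1_b replicate was left out.

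The promoter of Creld2 is shown for its ER stress response element (ERSE), the joint site of NF-Y and ATF6, spelled CCAAT and CCACG with any 9 bases between them on either strand. It was found, in any window, in 7 of the 14 chaperone genes present in the RefSeq table (Calr, Canx, Creld2, Dnajc3, Hsp90b1, Hspa5 and Pdia6). Of all windows, counted singly, 0.113% held it. The 250 bases before the start (GRCm38.p6, chr15:88819396-88819645, plus strand) are given 5′ to 3′, with the match in capitals and beginning 126 bases before the start.
Creld2: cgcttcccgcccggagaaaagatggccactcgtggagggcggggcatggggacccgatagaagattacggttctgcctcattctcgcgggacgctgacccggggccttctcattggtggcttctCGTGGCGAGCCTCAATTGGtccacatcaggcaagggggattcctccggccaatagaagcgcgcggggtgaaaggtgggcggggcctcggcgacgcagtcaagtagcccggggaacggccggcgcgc

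**Figure D3:**
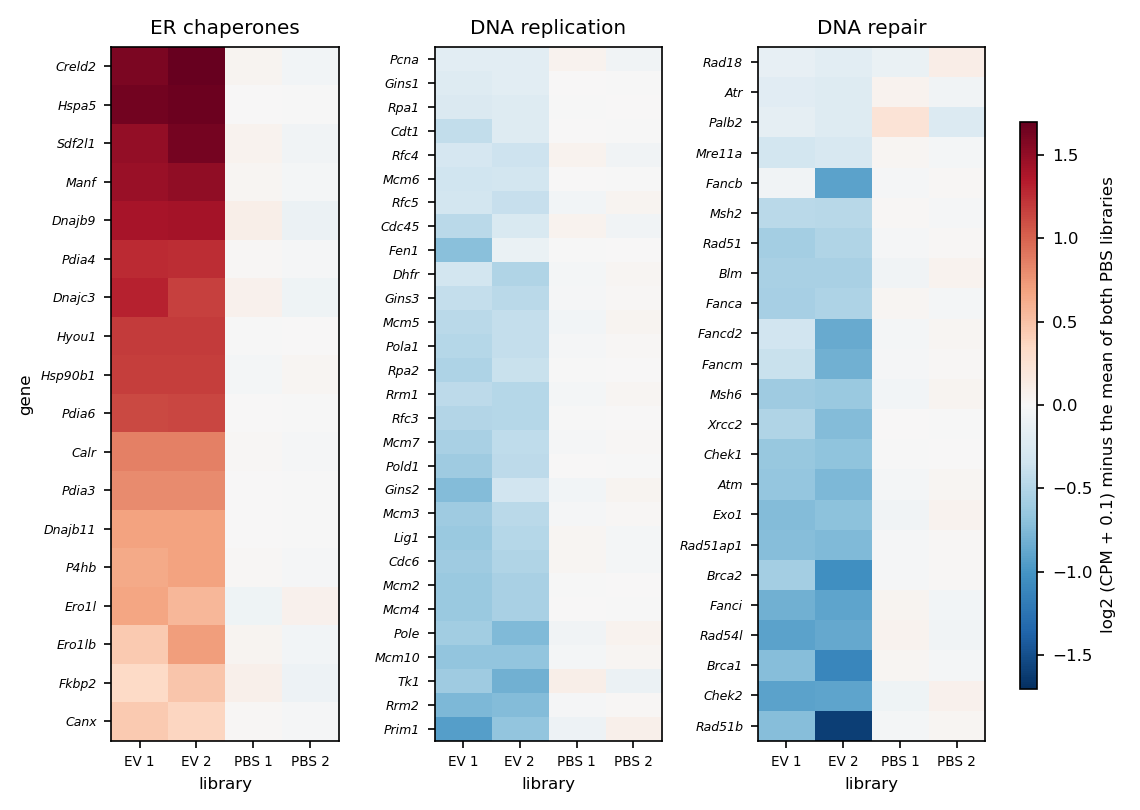
Difference of each library from the mean of the PBS libraries, in log2 (CPM + 0.1), for the tested members of 3 lists, 1 row per gene and 1 column per library (EV 1 and EV 2 are the LD-F1_b replicates). All 18 ER chaperone genes are higher (red) in both EV libraries, and the 29 replication and 23 repair genes are mostly lower (blue), with Fancb and Rad51b differing between the EV replicates.

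Antioxidant genes rose as well. Of 21 genes under the oxidative stress factor NRF2, 16 rose and 0 fell (median 0.41). Hmox1, the haem-degrading enzyme, stood at 1411 and 1448 CPM against 849 and 780.2 CPM (0.81 ± 0.05, adjusted p = 2.30e-08), Sqstm1, a selective autophagy adaptor, at 2435 and 2483 against 1473 and 1425 (0.76 ± 0.05) and Prdx1, a peroxiredoxin, at 1916 and 1914 against 1223 and 1201 (0.66 ± 0.05). Blvrb (0.85 ± 0.07) and Gclm, of glutathione synthesis (0.59 ± 0.05), rose too. Nqo1, a quinone reductase, rose by 0.49 ± 0.13, but not without PBS replicate 2, and Nfe2l2, the gene for NRF2, did not pass (0.11 ± 0.05). None of the 18 members found in the RefSeq table held the antioxidant response element, spelled TGAC and GCA with any 3 bases between them, in the window before the start, which 2.47% of all windows held. Genes of the NADPH oxidase, the enzyme of the oxidative burst, gave 6 of 12 higher and 0 lower, with Cybb, its catalytic subunit, at 829 and 759 against 529 and 543 CPM (0.57 ± 0.05) and Nox1 at 6.7 and 5.83 against 1.79 and 1.15 CPM (2.09 ± 0.31); 2 of these were higher in the fit of all 6 libraries. Of 16 genes of iron and metal handling, 8 rose and 2 fell. The iron importer Slc11a2 (164 and 171 against 89.3 and 77.7 CPM, 1.0 ± 0.07), the zinc exporter Slc30a1 (0.81 ± 0.15), the phagosomal iron transporter Slc11a1 (0.63 ± 0.06) and Slc40a1, which encodes the iron exporter ferroportin (0.43 ± 0.06), rose. Steap3, an endosomal ferric reductase, fell (67.5 and 77.6 against 156 and 141 CPM, -1.03 ± 0.08, adjusted p = 1.01e-07), and the fall of Aco1 (-0.29 ± 0.09) was lost without LD-F1_b replicate 1 or either PBS replicate. In the fit of all 6 libraries 5 members were higher.

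Genes of DNA replication and nucleotide synthesis were lower with LD-F1_b EVs. Of 29 tested, 0 rose and 26 fell (median -0.47), and 21 to 26 fell when a library was left out. The helicase gene Mcm2 stood at 171 and 181 CPM with EVs and 264 and 265 CPM with PBS (-0.59 ± 0.06, adjusted p = 1.23e-06), and Rrm2, the regulated subunit of ribonucleotide reductase, at 65.2 and 66.3 against 109 and 112 CPM (-0.75 ± 0.07). EV and PBS libraries did not overlap in either, as in all called genes. Prim1, of the primase (-0.81 ± 0.12), Tk1, the thymidine kinase (-0.71 ± 0.10), Mcm10 (-0.67 ± 0.08) and Pole, of the leading-strand polymerase (-0.67 ± 0.09), fell by similar amounts. Pcna fell by less (-0.18 ± 0.06, adjusted p = 0.0267), and not without PBS replicate 1. With a gene length offset 27 of the list were lower, and in the fit of all 6 libraries 19.

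The promoter of Cdc6, a loader of the replicative helicase, is shown for a match to the E2F element, spelled TTTCCCGC or TTTGGCGC on either strand. Cdc6 stood at 41.6 and 44.2 against 64.5 and 62.1 CPM (-0.56 ± 0.08, adjusted p = 0.000116). The letters occurred, in any window, in 6 of the 24 replication genes found in the RefSeq table (Cdc6, Gins3, Mcm5, Mcm6, Mcm7 and Pola1). They occurred likewise in 2 of 18 repair genes and in 0 of 26 mitosis genes. Of all windows, counted singly, 1.3% held them. The 250 bases before the start (GRCm38.p6, chr11:98907901-98908150, plus strand) are given 5′ to 3′, with the match in capitals and beginning 138 bases before the start.
Cdc6: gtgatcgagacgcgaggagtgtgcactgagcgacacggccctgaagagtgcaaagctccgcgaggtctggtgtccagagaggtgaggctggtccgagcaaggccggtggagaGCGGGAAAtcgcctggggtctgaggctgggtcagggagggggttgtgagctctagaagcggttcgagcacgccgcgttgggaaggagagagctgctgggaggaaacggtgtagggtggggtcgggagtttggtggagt

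DNA repair genes fell to a like extent, 18 of 23 with 0 higher (median -0.62), and 16 to 19 when a library was left out. Brca1, of homologous recombination, stood at 34.1 and 26.1 CPM against 57.8 and 55.5 CPM (-0.91 ± 0.11, adjusted p = 1.89e-05), Rad54l at 17.7 and 18.2 against 34.6 and 31.9 (-0.89 ± 0.11) and the damage checkpoint kinase Chek2 at 6.41 and 6.53 against 11.5 and 12.9 (-0.92 ± 0.18). The EV replicates differed in Brca1, but both lay below both PBS libraries, as in all genes called lower. Fanci (-0.86 ± 0.17), Brca2 (-0.80 ± 0.15) and Rad51ap1 (-0.74 ± 0.12) fell, and Rad51b, at few counts, did not pass (-1.19 ± 0.51). Of 30 mitosis and spindle genes 18 fell and 0 rose (median -0.30). The kinase gene Ttk (-0.63 ± 0.12), the proliferation marker Mki67 (209 and 163 against 278 and 283 CPM, -0.60 ± 0.10), the separase gene Espl1 (-0.57 ± 0.08) and Aurkb (-0.54 ± 0.09) fell, whereas Cdk1, the kinase that starts mitosis, did not pass (75.2 and 74.8 against 81.4 and 80.8 CPM, -0.11 ± 0.07, adjusted p = 0.27). The mitosis count was 9 in the fit of all 6 libraries.

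Regulators of the entry into S phase followed in part. Of 23 genes of the E2F family and of G1 to S cyclins, 11 fell and 2 rose (median -0.30); 7 fell in the fit of all 6 libraries, and 1 rose there and without LD-F1_b replicate 1 or PBS replicate 1. E2f1, an activator of S phase genes, stood at 57.6 and 57.6 against 91.3 and 79.3 CPM (-0.57 ± 0.08) and Ccne1, which encodes cyclin E1, at 22.3 and 21.8 against 35.5 and 34.6 CPM (-0.67 ± 0.10). Ccnd1, the cyclin that M-CSF induces, did not pass (-0.04 ± 0.05). The cyclin kinase inhibitor Cdkn1a rose, at 219 and 213 against 140.2 and 144 CPM (0.60 ± 0.06, adjusted p = 1.04e-06). It is also a target of p53, and of 18 such targets 9 rose and 1 fell, with Plk2 (1.59 ± 0.07), Gadd45a (1.59 ± 0.27), Fas (1.29 ± 0.25) and Plk3 (0.85 ± 0.12) higher and Sesn1 lower (-0.86 ± 0.16); without LD-F1_b replicate 2, 2 were lower. Mdm2, the ubiquitin ligase of p53, rose by 0.34 ± 0.05. In the BCL2 family and cell death list 6 of 23 rose, among them Bbc3, which encodes the death promoter PUMA (0.76 ± 0.14), the caspase inhibitor Birc3 (0.66 ± 0.08) and the survival gene Mcl1 (0.41 ± 0.05). The smaller rises of Bcl2l1 (0.21 ± 0.07) and Bcl2l2 (0.33 ± 0.10) were lost without either PBS replicate, and 3 of the list were higher in the fit of all 6 libraries. The number lower was 0, 2 without LD-F1_b replicate 1, 1 without LD-F1_b replicate 2 or PBS replicate 2 and 4 with library totals alone.

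**Figure D4:**
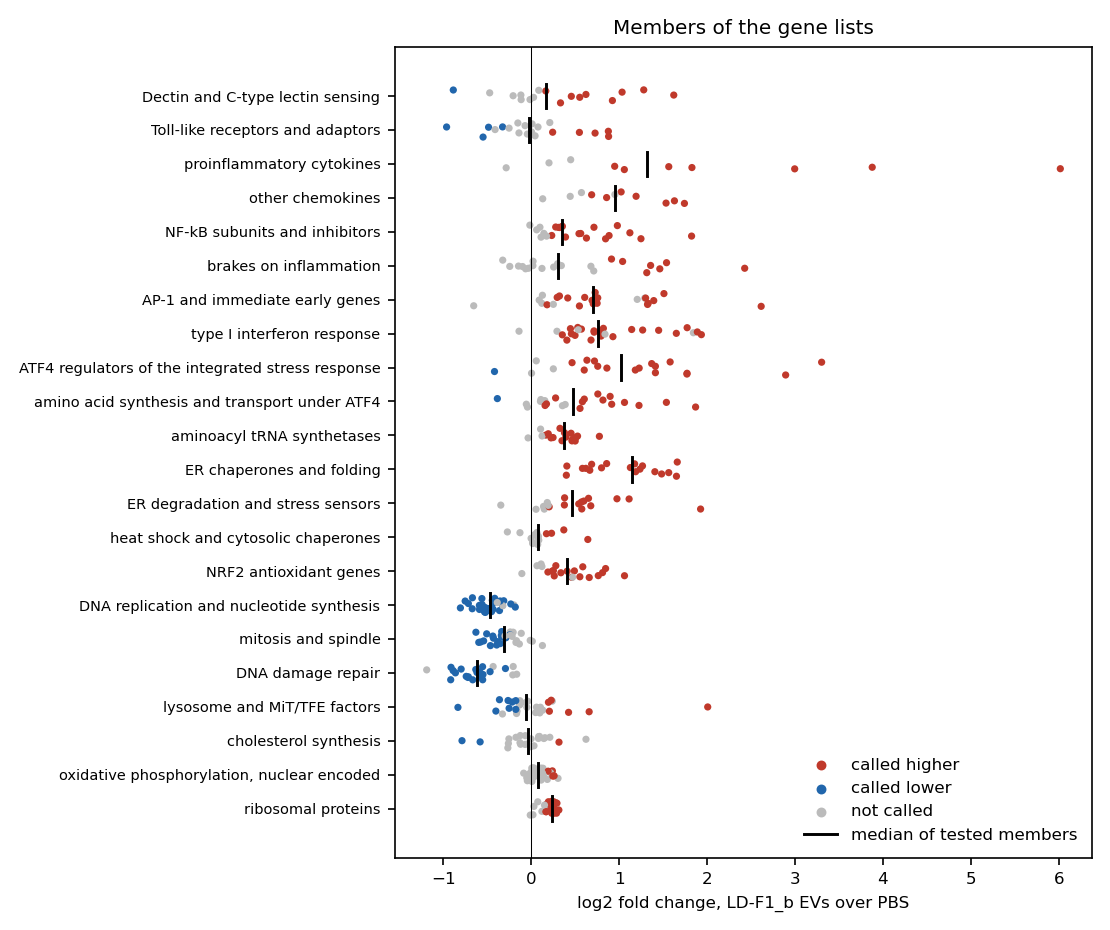
Log2 fold change of each tested member (points) of 22 gene lists, red for called higher, blue for called lower and grey for not called, with a black bar at the median of the tested members. ER chaperones lie wholly above 0, replication genes below it, and cytokines spread widest, up to 6.02.

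Genes of glycolysis rose by small amounts, and the mitochondrial lists hardly moved. Over all genes tested 12.6% rose and 12.1% fell. Of 19 genes of glycolysis and HIF1 targets, 13 rose and 2 fell (median 0.24). The glucose transporter Slc2a1 stood at 672 and 730.3 CPM against 403 and 399 CPM (0.81 ± 0.05, adjusted p = 3.34e-08), the lactate exporter Slc16a3 rose by 0.42 ± 0.05 and hexokinase Hk2 by 0.31 ± 0.05. The rise of Hif1a (0.16 ± 0.06, adjusted p = 0.0463) was lost without LD-F1_b replicate 1 or either PBS replicate. Hk1 (-0.20 ± 0.06) and Slc2a3 (-0.30 ± 0.08), the 2 members that fell, were not lower with a gene length offset or without PBS replicate 1. Without PBS replicate 1 this list had 8 higher, and in the fit of all 6 libraries 6. In the TCA cycle list, where Acod1 draws on the intermediate aconitate, 3 of 22 rose and 2 fell, and apart from Acod1 the called changes (Dld 0.19, Sdhc 0.18, Ogdh -0.18 and Aco1 -0.29) were each lost without either PBS replicate. Of 30 nuclear-encoded genes of oxidative phosphorylation 4 were called higher (Cox6c, Cox7b, Ndufa2 and Uqcrfs1, up to 0.26), and 0 without either PBS replicate, in the fit of all 6 libraries or with DESeq2.

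Genes of lipid metabolism moved in both directions, and over all genes tested 12.6% rose and 12.1% fell. In cholesterol synthesis 1 of 23 genes rose and 2 fell (median -0.04). Dhcr7, an enzyme of the last steps, fell (-0.79 ± 0.16). Insig1, a sterol-sensing regulator, rose by 0.32 ± 0.08, but not without PBS replicate 2. Without LD-F1_b replicate 1 the list gave 3 higher, and without LD-F1_b replicate 2 it gave 2 higher and 4 lower. With library totals alone 6 were lower. Of 15 genes of fatty acid synthesis 2 rose, among them Acsl4 (0.42 ± 0.06), and 3 fell: the elongase Elovl6 (48.6 and 48 against 81 and 75.8 CPM, -0.70 ± 0.08), Fasn, the fatty acid synthase (827 and 816 against 1105 and 1084 CPM, -0.41 ± 0.05), and Elovl5 (-0.35 ± 0.06). Under library totals alone or a gene length offset more of this list were lower, 6 and 5. Among 16 targets of the sterol receptor LXR and genes of sterol handling 2 rose and 5 fell. The cholesterol exporter Abcg1 stood at 59.6 and 65.3 against 95.5 and 101 CPM (-0.66 ± 0.07, adjusted p = 9.72e-06) and the cholesteryl ester hydrolase Nceh1 at 198 and 192 against 311 and 298 CPM (-0.64 ± 0.05). The rise of the exporter Abca1 (0.20 ± 0.06) was lost without either PBS replicate, and the falls of Soat1 (-0.23 ± 0.05) and Scarb1 (-0.24 ± 0.07) were lost without PBS replicate 1 and with a gene length offset. The number higher in this list was 0 when either PBS replicate was left out and 4 without LD-F1_b replicate 1, and the number lower was 3 without PBS replicate 1 and 2 with all 6 libraries fitted together.

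Lysosomal genes moved in both directions, and over all genes tested 12.6% rose and 12.1% fell. Of 29 tested, 6 rose and 8 fell (median -0.06); in the fit of all 6 libraries these were 3 and 2, and with library totals alone 13 were lower. The related transcription factors of lysosome genes parted: Mitf rose (89.2 and 78.6 against 52.5 and 53.8 CPM, 0.66 ± 0.08), as did Tfec (2.01 ± 0.40), and Tfeb fell (18.7 and 23 against 37.7 and 36.6 CPM, -0.83 ± 0.12, adjusted p = 6.81e-05). No library overlapped between groups in any of the 3, as in all called genes. This was so for 30.1% of all genes tested on the higher side and 30.5% on the lower side. Ctss, a protease of antigen processing, fell (-0.36 ± 0.05), as did the galactosidase gene Gla (-0.40 ± 0.08). Of 13 scavenger and phagocytic receptors 1 rose and 5 fell. The integrin genes Itgb5 (31.8 and 32.8 against 53 and 55.8 CPM, -0.75 ± 0.09) and Itgav (-0.35 ± 0.06) fell, the lipid scavenger Cd36 rose (0.33 ± 0.05), and Mrc1, the mannose receptor, did not pass (-0.21 ± 0.12). Without PBS replicate 1 this list had 2 lower, and without PBS replicate 2 it had 3, while 2 were higher without LD-F1_b replicate 2. Among Fc receptors and complement genes 2 of 12 rose and 3 fell, the latter being C5ar2, C5ar1 (-0.27 ± 0.06) and Fcgr3 (-0.25 ± 0.05). The rise of Fcer1g (0.17 ± 0.05) was lost without LD-F1_b replicate 1 or either PBS replicate, and the list had 1 member higher when a PBS replicate was left out.

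Receptors for chemoattractants and nucleotides also parted. Of 26 tested 10 rose and 6 fell (median 0.15). Ccrl2, which presents the attractant chemerin, stood at 7.12 and 5.62 CPM against 0.464 and 0.385 CPM (3.88 ± 0.38, adjusted p = 2.10e-06). The fatty acid receptor Gpr84 (1.36 ± 0.07), the adenosine receptor Adora2b (1.03 ± 0.12), Gpr35 (1.03 ± 0.17) and Ptger2, a prostaglandin E receptor (0.84 ± 0.15), rose. So did the fractalkine receptor Cx3cr1 (137 and 130.4 against 80.7 and 91.1 CPM, 0.64 ± 0.07). The formyl peptide receptor gene Fpr1, at few counts, had 1.71 ± 0.59 and lost its call without any 1 of the 4 libraries. Cxcr4, the receptor for CXCL12, stood at 1.9 and 2.6 CPM against 8.29 and 5.45 CPM (-1.60 ± 0.29, adjusted p = 0.000788) and S1pr1, for sphingosine 1-phosphate, fell as well (-0.62 ± 0.18). In the fit of all 6 libraries 3 of these receptors were lower. Costimulatory and checkpoint genes rose in 7 of 11 cases, with 0 lower: beside Cd40 and Cd274 these included Cd83 (1.54 ± 0.34) and Lgals9 (1.13 ± 0.24), and Cd86 (0.62 ± 0.19), whose call was lost without LD-F1_b replicate 2 or either PBS replicate. In the MHC class I pathway 10 of 15 rose and 0 fell, 6 without PBS replicate 2 and 5 in the fit of all 6 libraries, with Tapbp (0.38 ± 0.06), H2-K1 (0.38 ± 0.05) and Psme2 (0.57 ± 0.10) among them; Calr and Pdia3 of this list are ER chaperones too. The class II genes H2-Aa, H2-Ab1 and H2-Eb1 had at most 1 count in a library, and of the 5 members tested Cd74 rose (0.30 ± 0.05) and Ctss fell, neither of them in the fit of all 6 libraries. Of 10 markers of alternative activation 3 rose (30.0%) and 1 fell (10.0%), beside 12.6% and 12.1% of all genes tested. Those that rose, Egr2, Klf4 and Ccl22, are also in the immediate early or chemokine lists. Retnla and Chil3 had 0 counts in all 4 libraries, and Ccl17 and Ccl24 had at most 1 count in a library. The fall of Clec10a (-0.35 ± 0.12) was lost without LD-F1_b replicate 1 or either PBS replicate.

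Matrix-degrading enzymes rose. Of 16 matrix protease and inhibitor genes 10 rose and 3 fell (median 0.58). The gelatinase gene Mmp9 stood at 225 and 235 CPM with EVs and 74 and 82.2 CPM with PBS (1.56 ± 0.06, adjusted p = 1.45e-10), the elastase gene Mmp12 at 46 and 37.8 against 14.1 and 16.2 CPM (1.47 ± 0.13) and Plaur, the receptor for urokinase, at 303 and 334 against 154 and 154 CPM (1.05 ± 0.06). EV and PBS libraries did not overlap in any of these, as in all called genes. Timp2, an inhibitor of metalloproteinases, fell (39 and 36.9 against 69.8 and 66 CPM, -0.84 ± 0.08) and Mmp19 fell as well (-0.68 ± 0.15). The rise of Mmp2 (1.06 ± 0.37) was lost without any 1 of the 4 libraries.

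Among the macrophage identity genes, the sialic acid receptor Cd33 (-0.83 ± 0.10) and the transcription factor Cebpa (-0.35 ± 0.11) fell. Csf1r (-0.03 ± 0.05), Cd68 (0.04 ± 0.05) and the lineage factor Spi1 (0.15 ± 0.06) did not pass, and Mpeg1, which encodes a pore-forming protein, rose (0.33 ± 0.06). Summed over the list, the EV libraries held 73576 and 77870 counts and the PBS libraries 70506 and 72590. Many markers of other cell types were scarce, though for example Vwf, Il7r and Ighm averaged 51.6, 42.1 and 41.2 CPM with PBS. The part of these markers in the results was not tested. Neutrophil markers summed to 171 and 130 counts with EVs and 42 and 48 with PBS; Lcn2 gave 118 and 76 of the former, 2 of 14 passed the filter, and Ly6g, S100a9, Elane, Ngp and Retnlg were at 0 in all 4 libraries. Mast cell and basophil markers summed to 6 and 10 counts against 2 and 0, with 7 of 9 at 0 throughout, and erythroid markers to 16 and 7 against 4 and 13. Fibroblast markers gave 58 and 45 against 38 and 38, and Dcn, Lum, Cxcl12, Lepr and Thy1 were at 0. Endothelial markers summed to 590 and 590 against 941 and 865, mostly from Vwf, which fell (-0.45 ± 0.09). Egfl7 also fell (28 and 39 counts against 74 and 95, -1.22 ± 0.29), while Tek and Emcn were at 0. T and NK cell markers gave 609 and 514 against 651 and 650, nearly all from Il7r, with Cd3e, Cd3d and Nkg7 at 0. B cell markers summed to 722 and 694 against 591 and 697, nearly all from Ighm, with Ms4a1 at 0. Of 8 reference genes tested 4 rose, Actb at 6611 and 6947 against 4574 and 4899.8 CPM (0.52 ± 0.05), B2m (0.36 ± 0.06), Hprt (0.25 ± 0.06) and Rplp0 (0.17 ± 0.05), and Tbp did not pass (-0.02 ± 0.11). Without PBS replicate 2 the number was 2, and Rplp0 did not pass with library totals alone.

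Fold changes were lower in longer genes. Among genes with a mean of at least 5 CPM, split into 5 equal groups by the length of the gene model in the table, the median log2 fold change was 0.10, 0.04, 0.01, -0.03 and -0.11 from the shortest to the longest. The median length was 3384 bases for genes called higher, 5924 bases for genes called lower and 3751 bases for genes not called. With a library-specific offset for length in the same test, 1587 genes were higher and 1319 lower, and 2554 of the 3098 called genes were called in the same direction. Counts of the ER chaperone, replication and repair lists were then 17 higher, 27 lower and 18 lower. Some smaller counts moved by over 1.5 times with the offset. The number higher went from 4 to 1 in oxidative phosphorylation, from 3 to 1 in the TCA cycle and from 2 to 1 among Fc receptors and complement, and the number lower from 5 to 3 among scavenger receptors, from 5 to 3 among LXR targets and from 0 to 2 among heat shock genes. Of C-type lectin sensing 2 were lower in place of 1, and of the inflammasome list 1 in place of 2.

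**Figure D5:**
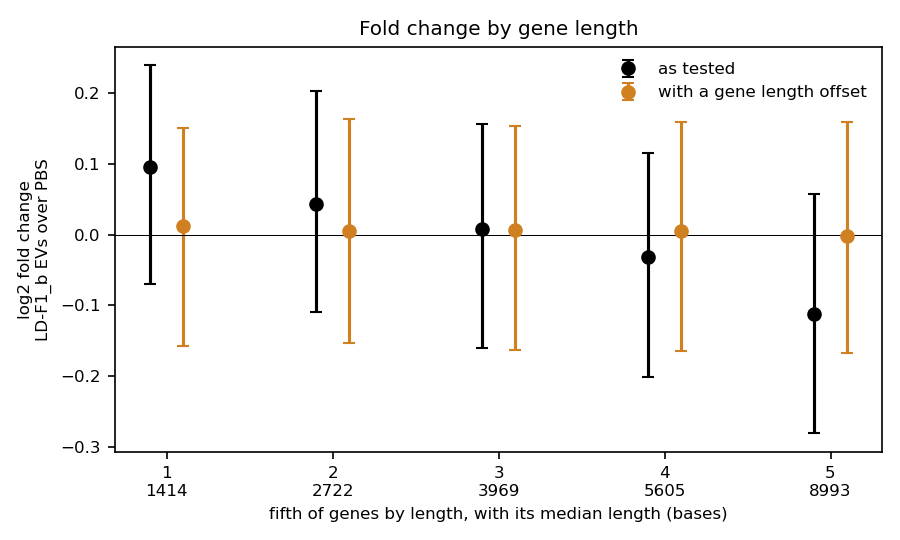
Median log2 fold change (points) with lower and upper quartiles (bars) in 5 equal groups of genes by gene length, as tested (black) and with a gene length offset (orange); the horizontal axis gives the group and its median length in bases. Medians run from 0.10 to -0.11 as tested and stay near 0 with the offset.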

How the data were processed

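Poly(A)-selected RNA of the macrophages was sequenced on an Illumina NovaSeq, per the labels. The deposited table holds raw counts per gene, in whole numbers. Tools named in the submitters' processing notes are featureCounts 1.5.0-p3, HISAT2 2.0.5, fastp and StringTie 1.3.3b, with build GRCm39. The table's identifiers are those of the C57BL/6NJ annotation for 41096 of 41972 entries, the last gene on chromosome 1 ends at 208807027, and 876 entries are loci assembled from reads. The deposited gene length column, per the file headers, is in bases. No source used here gives the strand setting or the treatment of multiply mapping reads, so genes with close copies, overlapping genes and antisense partners are uncertain.

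Counts of the 4 libraries entered edgeR 4.0.16 (R 4.3.3; glmQLFit and glmQLFTest) with filterByExpr, TMM and robust estimation, 2 residual degrees of freedom and Benjamini-Hochberg adjustment. A gene was called at an adjusted p under 0.05; standard errors were computed back from F. Tested genes held 99.874% to 99.903% of the counts. Alternatives were other scalings, filters and tools (DESeq2 1.42.0), all 6 libraries, a replicate block, a gene length offset and leaving out each library. Counts differed between replicates by more than counting error (chi-square per degree of freedom 5.67 for LD-F1_b and 3.20 for PBS). The script was tested on simulated data. Genes were named by rule: the 15 highest and 15 lowest fold changes among called protein-coding genes averaging 5 CPM or more whose groups do not overlap, up to 6 called members of each of 64 lists, and central members. Members and lists were chosen with earlier results of these data known, and members named without having been called, with few counts, or outside this rule (Atf5, Ccl9, Cdc6, Eif2ak3, Eif2ak4, Gpr35, Hk1, Mmp19, Mpeg1, Nupr1, Osm, Plk3, Ptger2, S1pr1, Shmt1, Slc2a3, Stc2, Timp2, Tlr9) were chosen after their values were seen. Some genes are not reported here. Promoter windows are from RefSeq (GRCm38.p6). A list member counted as holding an element if any of its windows did, while the share of all windows counts each window singly.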

Additional observations from a re-analysis of the deposited data

How the results depend on the processing

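No called gene changed sign under another scaling, filter, tool, block or set of libraries; 5 of 3098 did with a gene length offset. The number of genes called, 3098, moved to 1398 in the fit of all 6 libraries (1393 of them shared) and ran from 2022 to 3585 when a library was left out, with 1095 to 1848 higher and 927 to 1737 lower. In the fit of all 6 libraries 820 were higher, 578 lower and 41 lower by at least 1 on the log2 scale. Of the members of the 51 pathway lists, without the 13 marker lists, 303 were called there and 457 in the main test. The LD-F1 replicates add to the spread in that fit by construction. The count of genes higher by at least 1, 215, moved to 125 under a stricter filter, which tests fewer genes, and ran from 187 to 224 when a library was left out. The count lower by at least 1, 76, was 116 with library totals alone, 28 under the stricter filter and 42 with DESeq2, and ran from 43 (without PBS replicate 1) to 126 (without LD-F1_b replicate 1). Apart from the stricter filter and the added libraries, the cause was not tested. DESeq2 called 2345 genes, and the edgeR fit with no filter 3228. Of 321 named genes, 74 lost their call in the fit of all 6 libraries, 52 without PBS replicate 1, 46 without PBS replicate 2, 28 with library totals alone and 26 of 315 with DESeq2. The labels give no pairing by replicate number, and deviations of same-numbered libraries correlated at 0.000710 over all genes tested. With 2 libraries a group, that value cannot tell whether same-numbered libraries shared a mouse, day or batch. A replicate block called 2887 genes, 1471 higher and 1416 lower, and with a gene length offset too 2865. With 2 libraries a group and 0.192 to 0.211 CPM for 3 counts in a library, small changes of scarce genes were not detectable.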

Other observations

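Ribosomal protein genes differed by small and even amounts. Of 30 ribosomal protein genes tested, 22 rose and 0 fell (median log2 fold change 0.23). Rpl5, of the large subunit, stood at 835 and 710.2 CPM with LD-F1_b EVs and 617 and 626 CPM with PBS (0.31 ± 0.06) and Rps20, of the small subunit, at 368 and 355 against 299 and 290.3 CPM (0.29 ± 0.05). The count was 16 with a gene length offset, 15 without PBS replicate 1 and 0 in the fit of all 6 libraries, 1 was lower without LD-F1_b replicate 1, and these genes have many close copies in the genome. In ribosome biogenesis 14.8% of the genes rose and 3.70% fell, beside 12.6% and 12.1% of all genes tested. This was 4 of 27 higher, among them the nucleolar protein Npm1 (0.20 ± 0.05), and 1 lower, Polr1a (-0.18 ± 0.06). These numbers were 2 and 0 without PBS replicate 1, 1 and 0 without PBS replicate 2, and 8 and 3 without LD-F1_b replicate 1. Polr1a also lost its call without LD-F1_b replicate 2.

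Factors that shorten the life of cytokine mRNA rose in 3 of 17 cases (17.6%), and 2 fell (11.8%), shares near the 12.6% and 12.1% of all genes tested. The RNase gene Zc3h12c stood at 90.9 and 84.4 CPM against 42.6 and 43.3 CPM (1.03 ± 0.08) beside Zc3h12a and Zfp36, and Cnot1, the scaffold of the deadenylase complex, stood at 259.7 and 221 against 297 and 300.5 CPM (-0.31 ± 0.07); without PBS replicate 1, 1 member fell. Of 10 Kruppel-like factors 4 rose, with Klf9 (0.40 ± 0.10) and Klf7 (0.37 ± 0.09) losing their call without PBS replicate 1, and the fall of Klf10 (-0.36 ± 0.12) was lost without LD-F1_b replicate 2 or either PBS replicate. Among 22 autophagy genes 5 rose, Sqstm1 and Atg13 (118 and 119 against 92.7 and 91.5 CPM, 0.36 ± 0.06) in each fit that left out a library; without PBS replicate 2 the count was 2. Of 8 osteoclast markers Mmp9 and the fusion gene Dcstamp (219.7 and 220.3 against 142 and 164 CPM, 0.52 ± 0.07) rose, Nfatc1, the factor that drives osteoclast formation, fell (-0.31 ± 0.08), and Ctsk did not pass (-0.13 ± 0.08). Of the dendritic cell markers, summing to 1260 and 1397 counts against 1020 and 1101, Bst2, also a gene of the type I interferon response, gave 1129 and 1282 against 941 and 1023 and rose (0.41 ± 0.08). Xcr1 rose (69 and 59 counts against 20 and 18, 1.85 ± 0.34) while Siglech and Ccr7 were at 0 in all 4 libraries. Monocyte markers summed to 188 and 178 counts against 131 and 163, and megakaryocyte markers to 671 and 650 against 952 and 855.

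Outside the gene lists, 1240 genes were called higher and 1388 lower, so most calls belong to genes not described above. Of the 1578 higher genes 1452 were annotated as protein coding, and of the 1520 lower genes 1472.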
